A study of Homo sapiens with 8 samples.

Results

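Nascent RNA was measured at 10 genes of the fibroblast growth factor (FGF) system: the ligand genes FGF1, FGF2, FGF5, FGF7, FGF10 and FGF18, the receptor genes FGFR1, FGFR2 and FGFRL1, and NUDT6, whose gene runs into the end of FGF2 from the opposite strand. They were found by gene symbol among 27945 rows of a count table, and each symbol matched 1 row. The cells were IMR90, a human fetal lung fibroblast cell line, and carried an inducible fusion of the estrogen receptor with oncogenic H-RAS (ER:RAS), which 4-hydroxytamoxifen (4-OHT) switches on to induce senescence. Control cells are labeled without an shRNA. The senescent cells had 100 nM 4-OHT, were harvested on day 6, and carried shControl, shMETTL3 or shMETTL14, the last 2 being hairpins against the subunits of the m6A methyltransferase complex, with 1 hairpin per target. Each of the 4 groups had 2 libraries, which the study calls biologically independent experiments while the labels give only a replicate number. The p-values therefore measure the spread between these libraries, pooled over the 4 groups. Because only the senescent cells are labeled with an shRNA, effects of senescence and of infection cannot be told apart in the comparison with control cells.

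FGF ligands are secreted or released proteins that bind heparan sulfate on the cell surface together with a tyrosine kinase receptor, and the receptor then signals through FRS2, GRB2 and SOS to RAS and the ERK kinases. The pathway also raises its own brakes, the Sprouty, SPRED and DUSP genes, which respond to active RAS as well. Lung fibroblasts are known as a source of FGF7 and FGF10, which act on the neighbouring epithelium, and carry FGFR1 themselves.

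By fastGRO-seq, engaged polymerases run on for 7 min in isolated nuclei with 4-thio-UTP, and the RNA labeled in this way is captured and sequenced. The deposited counts cover each gene body from start to end, with its introns. Here they are given as normalized counts, which are counts divided by the library's relative size after TMM scaling in edgeR, and as normalized counts per kb of gene body where levels of different genes are compared. Library totals ran from 14897360 to 20306299 counts, with 86.2% to 92.5% in 21 rows of ribosomal RNA and 1513930 to 2048475 counts elsewhere. The ribosomal share moved with the groups, at 89.9% and 89.9% in control cells, 92.5% and 92.1% in shControl cells, 88.4% and 86.2% in shMETTL3 cells and 90.4% and 91.3% in shMETTL14 cells. The TMM factors moved too, from 0.747 and 0.806 in shControl cells to 1.11 and 1.27 in shMETTL3 cells. The shMETTL3 libraries differed most from each other, with a replicate variance of 5.13 times the counting noise against 1.53 to 2.52 in the other groups. The shRNA targets were checked first. METTL3 had 91.0 and 52.3 normalized counts in shControl cells against 16.4 and 18.04 in shMETTL3 cells (log2 fold change -2.04 ± 0.31, SE, adjusted p = 1.79e-05). METTL14 had 28.4 and 31.2 in shControl cells against 17.99 and 14.7 in shMETTL14 cells, the lowest of the 8 libraries, but the difference did not pass the threshold (-0.86 ± 0.34, adjusted p = 0.0763). All 12 fibroblast markers were detected, with summed normalized counts of 31924 to 34174 in control cells, 22097 to 23852 under shControl, 25662 to 30310 under shMETTL3 and 14453 to 17179 under shMETTL14. EPCAM, CDH1, KRT5 and SFTPC of epithelium, PECAM1, CDH5 and KDR of endothelium, and CD3E, CD14 and HBB of blood had at most 3 counts in any library. Of the 8 epithelial and the 6 endothelial markers, 2 each reached 10 counts in a library, with highest counts of 43 and 123. Summed, the epithelial markers had 54.9 normalized counts in control cells and 34.5 to 55.6 under shControl. They had 21.8 to 24.6 under shMETTL3 and 62.1 to 79.0 under shMETTL14. In the same order the endothelial sums were 101.8 to 115.8, 60.3 to 63.4, 56.4 to 71.2 and 15.99 to 30.5. The 1 endothelial marker tested was called lower in senescence and with shMETTL14. The part that the shifts in marker levels have in the results on the FGF genes was not tested. In these bulk libraries, fewer cells that transcribe a gene and less transcription per cell cannot be told apart.

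The promoter sequences of the ligand genes that the results turn on differ in kind. FGF2 and FGF5 start behind GC-rich DNA and FGF7 behind AT-rich DNA, and the start of NUDT6 faces that of SPATA5 across a gap of 65 bases. Shown are the 250 bases before the start of FGF2 (chr4:123747613-123747862, plus strand), FGF5 (chr4:81187492-81187741, plus strand) and FGF7 (chr15:49715125-49715374, plus strand), and the whole gap between NUDT6 and SPATA5 (chr4:123844160-123844224, plus strand), all from GRCh37, which has the coordinates of hg19. Capitals mark the letters GGGCGG, the core of the SP1 motif, on either strand, CCGCCC being its reverse complement.
FGF2: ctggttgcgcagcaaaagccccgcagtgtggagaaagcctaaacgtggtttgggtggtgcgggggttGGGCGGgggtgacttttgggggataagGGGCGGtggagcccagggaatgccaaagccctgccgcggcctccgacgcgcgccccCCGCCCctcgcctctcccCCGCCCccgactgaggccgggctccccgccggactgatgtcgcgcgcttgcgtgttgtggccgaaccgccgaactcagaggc
FGF5: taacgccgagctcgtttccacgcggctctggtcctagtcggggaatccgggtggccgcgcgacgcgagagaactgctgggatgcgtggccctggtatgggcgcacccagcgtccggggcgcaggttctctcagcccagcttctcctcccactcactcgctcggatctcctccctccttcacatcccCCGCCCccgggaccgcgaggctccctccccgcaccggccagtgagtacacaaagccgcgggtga
FGF7: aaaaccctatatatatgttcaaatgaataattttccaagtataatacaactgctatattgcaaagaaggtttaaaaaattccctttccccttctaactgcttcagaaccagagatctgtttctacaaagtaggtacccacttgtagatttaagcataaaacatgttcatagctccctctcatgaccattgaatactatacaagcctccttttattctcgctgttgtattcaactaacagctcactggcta
NUDT6 to SPATA5 gap: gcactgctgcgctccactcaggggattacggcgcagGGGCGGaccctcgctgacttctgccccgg
The GC content was 70.4% for FGF2, 68.8% for FGF5, 34.8% for FGF7 and 70.8% for the gap. Over the window from 250 bases before to 50 after the start, searched on both strands, FGF2 held GGGCGG 5 times, 4 of them in the stretch shown, FGF5 and NUDT6 held it once each, and FGF7 did not hold it. The same letters were in 47.4% of the 26995 windows of the table. The letters CCGGAAG of the ETS motif, found in 10.3% of windows, were in those of NUDT6 and FGFRL1. TGANTCA of AP-1, in 6.95% of windows, and GGGANTTTC of NF-kappaB, in 1.21%, were in none of the 10 genes' windows. Among the other genes, the letters GGGCGG occurred 3 times for FGF18 and 6 times for FGFRL1, and not for FGF1, FGF10, FGFR1 or FGFR2. These are matches of letters and not sites of binding.

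Of the 10 genes, 7 had enough reads to be tested with edgeR's quasi-likelihood test over 12844 rows, at a Benjamini-Hochberg adjusted p under 0.05. FGF2 and NUDT6 rose together in senescent shControl cells and fell with either knockdown, FGF7 fell in senescence and again with either knockdown, and FGF5 fell in senescence and rose with either knockdown. FGFR1 fell in senescence, and FGFRL1 fell with shMETTL3. In senescence 5 of the 7 tested genes were called, 2 higher and 3 lower, where 26.6% of all tested rows were called, 13.3% higher and 13.3% lower. With shMETTL3, 5 were called against shControl, 1 higher and 4 lower, against 23.4% of all rows, 12.2% higher and 11.2% lower. With shMETTL14, 4 were called, 1 higher and 3 lower, against 21.2% of all rows, 9.15% higher and 12% lower. The median log2 fold change of the 7 tested genes was -0.33, -0.66 and -0.47 in these comparisons, and that of all tested rows was -0.03, -0.03 and 0.00. Without TMM factors the called rows numbered 752 higher and 5007 lower in senescence, 5285 higher and 353 lower with shMETTL3 and 3163 higher and 710 lower with shMETTL14. All 3 comparisons use the shControl libraries, so a rise in one and a fall in the next share those values.

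**Figure D1:**
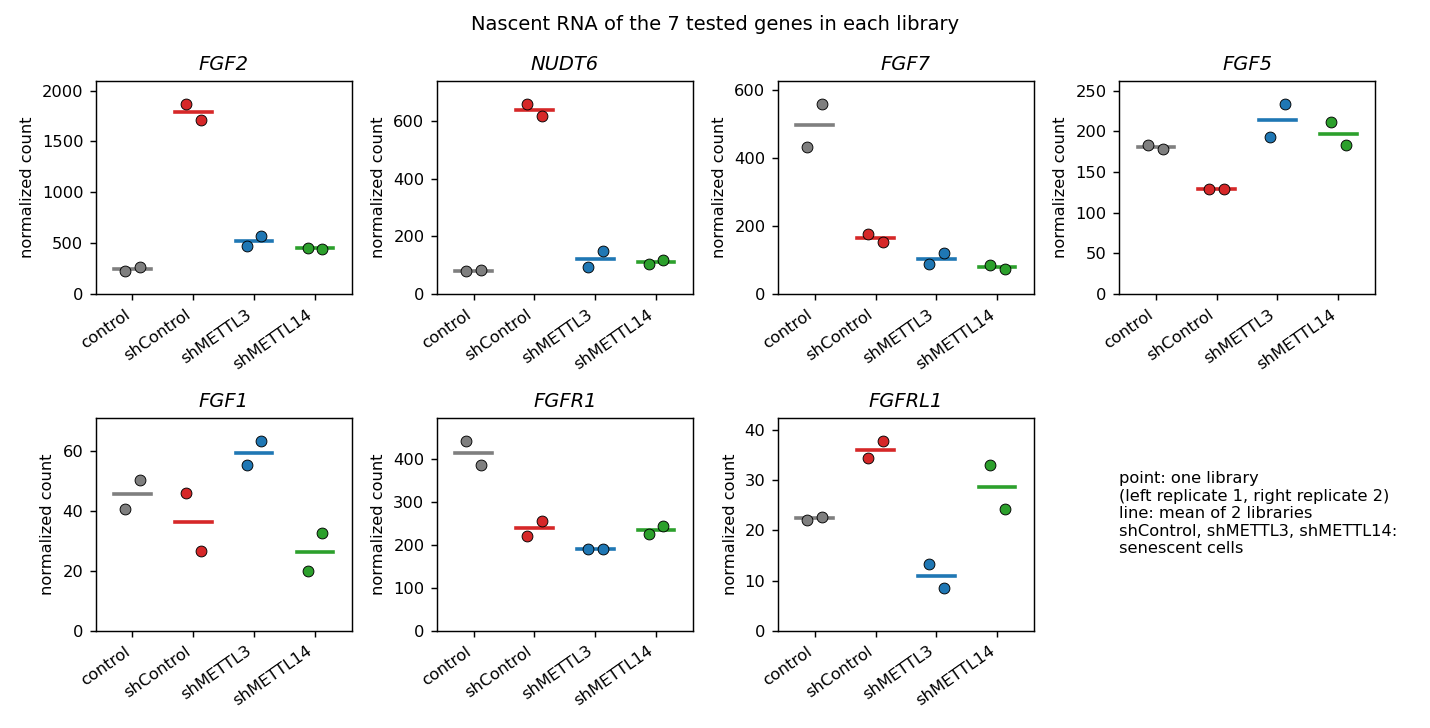
Normalized counts (vertical axes, each from 0) of the 7 tested genes in each of the 8 libraries, with points for libraries and lines for the means of 2 libraries. In FGF2 and NUDT6 the shControl libraries, at 1710 to 1869 and 618 to 658, stand far above all others.

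FGF2 encodes basic FGF, a ligand without a signal peptide that stimulates the growth of fibroblasts and endothelial cells. In control cells its nascent RNA was at 230.2 and 267 normalized counts. In shControl cells it was at 1869 and 1710, in shMETTL3 cells at 476 and 575 and in shMETTL14 cells at 454 and 444. Both shControl libraries lay far above all others, and no group overlapped another, although the knockdowns lay close together. In senescence FGF2 rose 7.19-fold (log2 fold change 2.85 ± 0.15, SE, adjusted p = 1.64e-14). It fell 3.40-fold with shMETTL3 (-1.77 ± 0.14, adjusted p = 5.38e-10) and 3.98-fold with shMETTL14 (-1.99 ± 0.14, adjusted p = 5.69e-11). With either knockdown it stayed above the control cells, by 2.11-fold with shMETTL3 (adjusted p = 1.03e-06) and 1.80-fold with shMETTL14 (adjusted p = 3.59e-05). The direct difference between the knockdowns was -0.23 ± 0.14 on the log2 scale and did not pass (adjusted p = 0.22). FGF2 and NUDT6 are on the study's own list of genes that rose in senescence and fell with the knockdowns, which was drawn from these libraries, so their directions are not independent evidence. With the ribosomal RNA rows left out, the log2 fold changes of FGF2 were 2.87 in senescence, -1.75 with shMETTL3 and -1.99 with shMETTL14.

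NUDT6 encodes a Nudix hydrolase and is known as the antisense partner of FGF2. It had 78.8 and 83.6 normalized counts in control cells, 658 and 618 under shControl, 94.4 and 150.0 under shMETTL3, and 104 and 118 under shMETTL14. The shControl libraries again stood alone at the top, and the libraries of the knockdowns overlapped each other but not the control cells. NUDT6 rose 7.85-fold in senescence (2.97 ± 0.17, adjusted p = 1.54e-13). It fell 5.19-fold with shMETTL3 (-2.38 ± 0.16, adjusted p = 4.35e-11) and 5.75-fold with shMETTL14 (-2.52 ± 0.17, adjusted p = 1.82e-11). Against control cells it was 1.51-fold higher with shMETTL3 (adjusted p = 0.0143), a call lost without the second shMETTL3 library (adjusted p = 0.474) and without either control library (adjusted p = 0.0998 and 0.0548). With shMETTL14 the difference from control cells, 0.45 ± 0.19 on the log2 scale, did not pass (adjusted p = 0.0692).

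FGF2 (chr4:123747863-123819391, plus strand) and NUDT6 (chr4:123813799-123844159, minus strand) share 5593 bases at their ends, or 7.82% of the length of FGF2 and 18.4% of that of NUDT6. As annotated, the shared stretch lies wholly in the last exon of FGF2, in its 3′ UTR, and for NUDT6 it covers 637 exon bases and 4956 intron bases. The counts did not separate the strands: in 52 of 52 pairs in which a row of at least 100 counts on average lay inside a row on the other strand, the outer row never had fewer counts than the inner one. Reads in the shared stretch therefore count for both genes. If the reads of each gene were spread evenly along its length, FGF2 would supply 20.5% to 38.6% of the NUDT6 count, and the rest of the NUDT6 count would be 61.7 and 63.6 in control cells, 520 and 491 under shControl, 58.0 and 107 under shMETTL3 and 69.5 and 84.4 under shMETTL14. On that reckoning the log2 ratio of this rest was 3.01 in senescence, -2.62 under shMETTL3 and -2.72 under shMETTL14, given here with no test. Only reads within the shared stretch are taken off. Reads of the FGF2 strand beyond the annotated end of FGF2 would stay in the rest, and whether there were any was not tested. The deposited counts hold 1 number per gene, so where along the genes the reads lie was not analysed here.

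**Figure D2:**
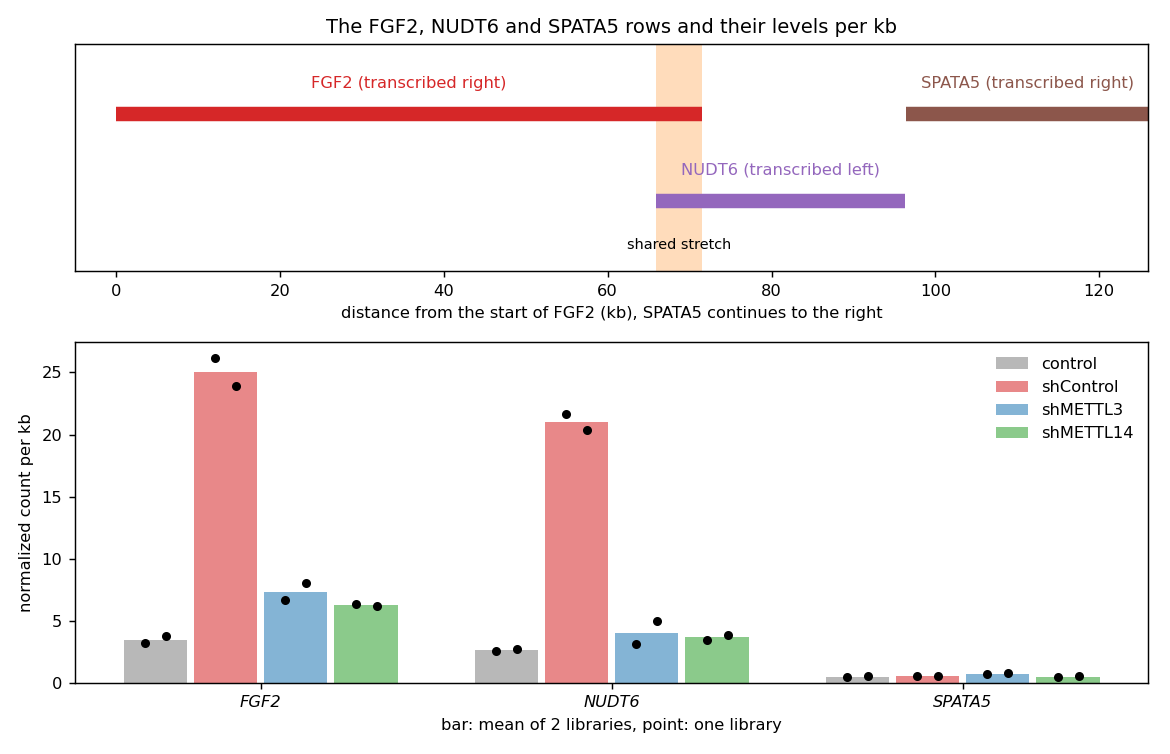
The top panel maps FGF2, NUDT6 and SPATA5 by distance from the start of FGF2 in kb, with the stretch shared by FGF2 and NUDT6 shaded. The bottom panel gives normalized counts per kb, with bars for group means and points for libraries, and shows FGF2 at 25.0 and NUDT6 at 21.0 under shControl while SPATA5 stays low in all groups.

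The neighbouring rows were looked at next. SPATA5, an AAA ATPase gene that starts 65 bases from the start of NUDT6 and runs the other way, had 170 and 206 normalized counts in control cells, 219 and 208 under shControl, 267 and 324 under shMETTL3 and 189 and 212 under shMETTL14. In senescence its log2 fold change was 0.18 ± 0.15 and did not pass (adjusted p = 0.419). With shMETTL3 SPATA5 rose (0.47 ± 0.15, adjusted p = 0.0238), the direction opposite to NUDT6, though the call was lost with DESeq2 (adjusted p = 0.0986), without either shControl library (0.11 and 0.197) and without the second shMETTL3 library (0.214). BBS12, the nearest row before FGF2 at 81.8 kb, was not tested. It had 5 and 3 counts in control cells, 6 and 7 in shControl cells, 3 and 0 in shMETTL3 cells and 4 and 3 in shMETTL14 cells, so its shControl libraries were the highest of the 8, on few counts.

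FGF7 encodes keratinocyte growth factor, which fibroblasts release and which acts on epithelial cells through FGFR2. It had 433 and 559 normalized counts in control cells, 177 and 154 under shControl, 87.2 and 121 under shMETTL3, and 87.0 and 74.8 under shMETTL14. The control libraries were the highest, the shControl libraries came next and the knockdown libraries were the lowest, and the libraries of the knockdowns did not overlap by a narrow margin. FGF7 fell 3.0-fold in senescence (log2 standard error 0.16, adjusted p = 1.55e-08). It fell a further 1.58-fold with shMETTL3 (-0.66 ± 0.19, adjusted p = 0.0101) and 2.04-fold with shMETTL14 (-1.03 ± 0.19, adjusted p = 0.000296). Against control cells it was 4.75-fold lower with shMETTL3 (adjusted p = 2.4e-11) and 6.12-fold lower with shMETTL14 (adjusted p = 2.81e-12). The call with shMETTL3 was lost with DESeq2 (adjusted p = 0.0548), without the first shControl library (0.121), without the first shMETTL3 library (0.0704) and without TMM factors, where the log2 fold change was -0.04 (adjusted p = 0.90). Its promoter, the AT-rich one shown above, lacked GGGCGG, as did those of FGF1, FGF10, FGFR1 and FGFR2. A part of these letters in the changes of FGF7 was not tested.

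FGF7 (chr15:49715375-49779523, plus strand) lies wholly inside FAM227B, a gene on the opposite strand that is 293 kb long. FAM227B had 554 and 707 counts in control cells, 207 and 185 under shControl, 171 and 234 under shMETTL3 and 142 and 125 under shMETTL14. After the counts of FGF7 were taken away, FAM227B kept 65 and 65 counts in control cells, 57 and 47 under shControl, 86 and 107 under shMETTL3 and 55 and 54 under shMETTL14. Per kb, the part of FAM227B outside FGF7 had 2.84% to 28.4% of the density of FGF7, lowest in control cells and highest with shMETTL3. Reads of FAM227B that fall within FGF7 cannot be told apart from reads of FGF7.

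FGF5, a ligand best known for ending the growth phase of hair, was at 183 and 179 normalized counts in control cells, 128.9 and 129.1 under shControl, 193 and 234 under shMETTL3, and 211 and 183 under shMETTL14. The shControl libraries were the lowest of the 8, and no library of another group reached down to them. FGF5 fell 1.40-fold in senescence (-0.49 ± 0.16, adjusted p = 0.0256). This call was lost with DESeq2 (adjusted p = 0.133), without the count filter (0.0513) and without any single library of control or shControl cells (0.0978 to 0.157). FGF5 was 1.65-fold higher with shMETTL3 than with shControl (0.73 ± 0.16, adjusted p = 0.00149), a call kept under all 11 alternatives. It was 1.53-fold higher with shMETTL14 (0.61 ± 0.16, adjusted p = 0.00767), a call lost without the first shMETTL14 library (0.149) or either shControl library (0.0693 and 0.0778). Against control cells, FGF5 did not pass with shMETTL3 (log2 fold change 0.24 ± 0.15, adjusted p = 0.216) or with shMETTL14 (0.12 ± 0.15, adjusted p = 0.546).

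FGF1, or acidic FGF, a ligand that binds all FGF receptors, was transcribed at a low level. It had 40.7 and 50.5 normalized counts in control cells, 46.1 and 26.7 under shControl, 55.4 and 63.6 under shMETTL3, and 19.99 and 32.6 under shMETTL14. The shControl libraries spanned much of this range and overlapped those of control and shMETTL14 cells. None of the 3 main comparisons passed, with log2 fold changes of -0.33 ± 0.30 in senescence (adjusted p = 0.458), 0.72 ± 0.29 under shMETTL3 (0.0798) and -0.47 ± 0.33 under shMETTL14 (0.356). The knockdowns differed from each other, FGF1 being 2.27-fold lower with shMETTL14 than with shMETTL3 (-1.18 ± 0.30, adjusted p = 0.00347), and the call was lost without the first shMETTL14 library (0.0935). In that direct comparison 2 of the 7 tested FGF genes were called, FGF1 and FGFRL1, against 35.2% of all tested rows.

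FGF10, which drives the branching of the lung, and FGF18, a ligand of cartilage and bone, were near the floor of the assay. FGF10 had 5 counts in the second control library and 0 in the other 7 libraries. FGF18 had 5 and 6 counts in control cells, 4 and 3 under shControl, 1 and 0 under shMETTL3 and 6 and 6 under shMETTL14. Both fell below the count filter. In the fit without the filter FGF18 was called between the knockdowns, higher with shMETTL14 than with shMETTL3 (adjusted p = 0.0437), and neither gene was called in the other comparisons.

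The make-up of the ligands' nascent RNA differed between the groups and is described here with no test. FGF7 made up 48.6% and 52.5% of the summed normalized count of the 6 ligand genes in control cells, 7.97% and 7.59% under shControl, 10.7% and 12.1% under shMETTL3 and 11.2% and 10.1% under shMETTL14. The share of FGF2 was 25.8% and 25.1% in control cells, 84.0% and 84.5% under shControl, 58.6% and 57.9% under shMETTL3 and 58.4% and 59.9% under shMETTL14. FGF5 held 16.8% to 20.6% in control cells, 5.79% and 6.38% under shControl, and 23.5% to 27.1% with the knockdowns. These shares are of counts over gene bodies of unequal length, and a share falls when another gene rises. The sum itself was 892 and 1065 in control cells, 2226 and 2022 under shControl, 813 and 993 under shMETTL3 and 778 and 741 under shMETTL14.

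**Figure D3:**
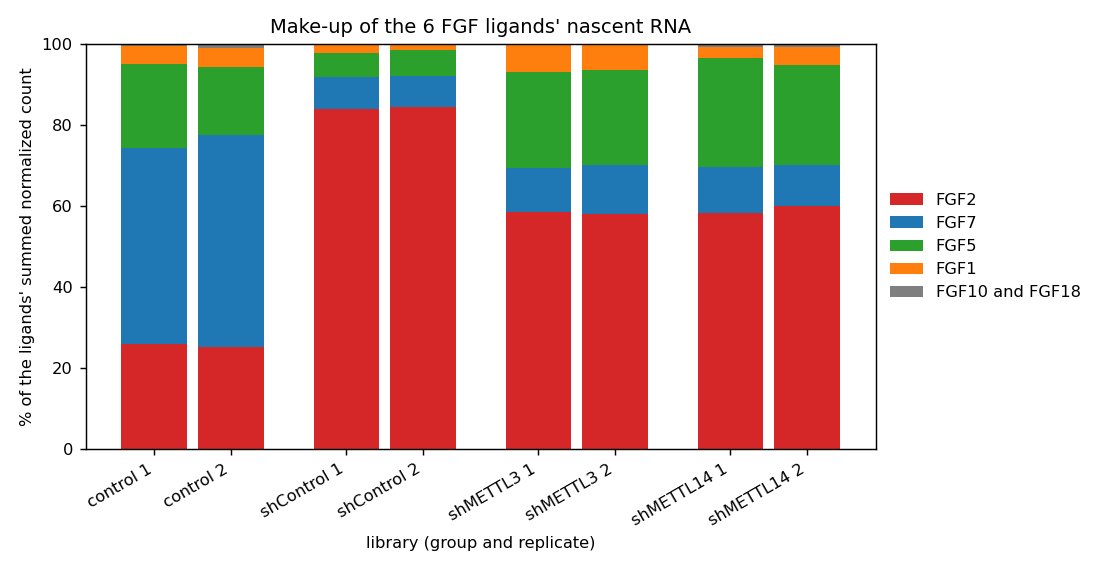
Share (%) of each FGF ligand gene in the summed normalized count of the 6 ligand genes, 1 bar per library. FGF7 holds 48.6% and 52.5% in control cells, and FGF2 holds 84.0% and 84.5% in senescent shControl cells and 57.9% to 59.9% with the knockdowns.

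FGFR1, the main FGF receptor of mesenchymal cells and a tyrosine kinase, had 444 and 388 normalized counts in control cells, 222 and 256 under shControl, 189.8 and 191.8 under shMETTL3, and 225 and 245 under shMETTL14. The control libraries stood above all 6 senescent libraries, and the shControl and shMETTL14 libraries overlapped. FGFR1 fell 1.74-fold in senescence (-0.80 ± 0.14, adjusted p = 7.01e-05). Against shControl it did not pass with shMETTL3 (-0.33 ± 0.15, adjusted p = 0.115) or shMETTL14 (-0.03 ± 0.15, adjusted p = 0.929), and without TMM factors both values were above 0. Against control cells FGFR1 was 2.18-fold lower with shMETTL3 (adjusted p = 2.79e-07) and 1.77-fold lower with shMETTL14 (adjusted p = 2.46e-05).

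FGFRL1 encodes a receptor that binds FGF ligands but lacks the kinase domain. It had 22.1 and 22.6 normalized counts in control cells, 34.3 and 37.8 under shControl, 13.3 and 8.55 under shMETTL3, and 33.0 and 24.2 under shMETTL14. The shMETTL3 libraries were the lowest of the 8. In senescence the value was higher but did not pass (0.69 ± 0.33, adjusted p = 0.135). FGFRL1 fell 3.30-fold with shMETTL3 (-1.72 ± 0.39, adjusted p = 0.00166), a call kept under all 11 alternatives, and did not pass with shMETTL14 (-0.33 ± 0.33, adjusted p = 0.527). The knockdowns differed directly, with FGFRL1 at 2.62-fold the level with shMETTL14 (1.39 ± 0.39, adjusted p = 0.00717). The direct call was lost without the second shMETTL3 library (0.0584) and without the first shMETTL14 library (0.125). FGFR2, the receptor of FGF7 and FGF10 on epithelium, had 2 counts in the first shMETTL14 library and 0 in the other 7 libraries, so it was not tested.

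**Figure D4:**
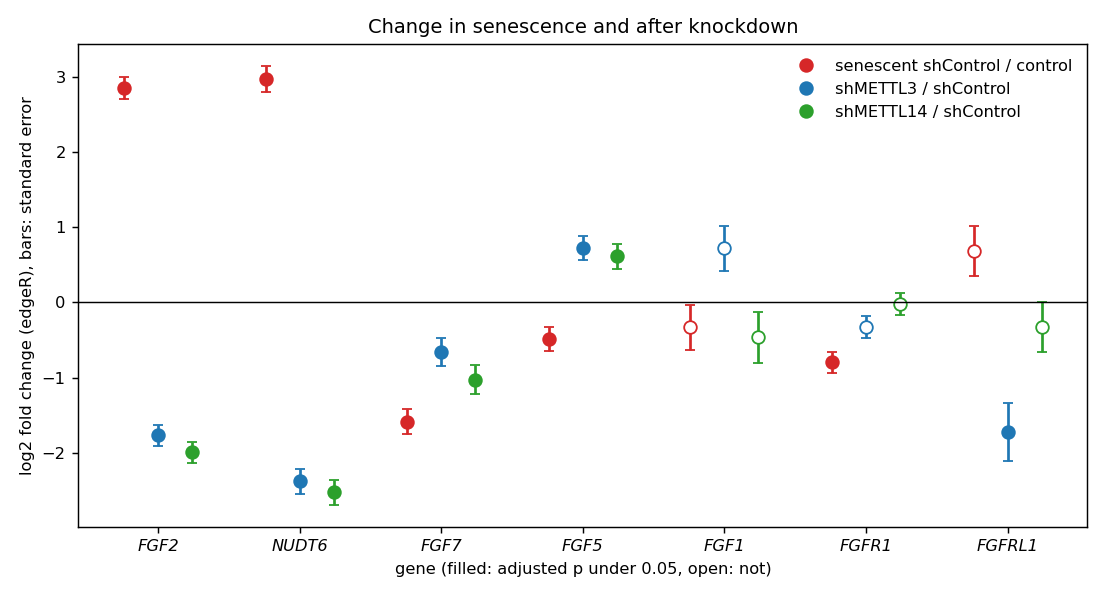
Log2 fold changes (vertical axis, edgeR, bars for the standard error) of the 7 tested genes in senescence and with each knockdown, filled where the adjusted p was under 0.05. FGF2 and NUDT6 lie near 2.85 and 2.97 in senescence and between -1.77 and -2.52 with the knockdowns, and FGF5 alone lies above 0 with filled points in both knockdowns.

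Levels of different genes were compared per kb of gene body. In control cells FGF7, FGF5 and FGFR1 were the highest at 7.73, 7.41 and 7.20 normalized counts per kb, and the libraries of neighbours in that order overlapped. FGF2 at 3.48 and NUDT6 at 2.67 came next, then FGFRL1 at 1.49 and FGF1 at 0.431. With shControl FGF2 was the highest at 25.0 per kb and NUDT6 second at 21.0, ahead of FGF5 at 5.28, FGFR1 at 4.14, and FGF7 at 2.58 and FGFRL1 at 2.39, whose libraries overlapped. With shMETTL3 FGF5 at 8.73 and FGF2 at 7.35 led with overlapping libraries. With shMETTL14 FGF5 led at 8.07 per kb, and FGF2 at 6.28 followed without overlap. FGF18, FGF10 and FGFR2 were last in every group, at 0.162 per kb or less.

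Against control cells, the knockdown groups were called for 5 of the 7 tested genes with shMETTL3 and for 4 with shMETTL14, where 40.2% of all tested rows were called in each. With shMETTL3, FGF2 and NUDT6 were higher than in control cells, and FGF7, FGFR1 and FGFRL1 were lower, although the call for FGFRL1 (log2 fold change -1.03 ± 0.40, adjusted p = 0.0406) was kept in only 4 of 11 alternatives. With shMETTL14, FGF2 was higher, and FGF1, FGF7 and FGFR1 were lower, FGF1 by 1.74-fold (adjusted p = 0.0422), a call lost with DESeq2 (0.151), without either control library (0.0547 and 0.234) and without the first shMETTL14 library (0.395). These comparisons share the control libraries with the comparison of senescence. Leaving out TMM factors moved the median log2 fold change of all rows to -0.53 in senescence, 0.58 under shMETTL3 and 0.35 under shMETTL14. Set against that shift, FGF2 at 2.35, -1.14 and -1.64 and NUDT6 at 2.47, -1.75 and -2.17 kept their calls.

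The rest of the FGF system was examined in 5 lists of genes. Of 18 other FGF ligand and receptor genes, 5 had no count in any library, 16 were not tested, and none of those 16 exceeded 11 counts. FGF14, an intracellular relative of the ligands that acts on sodium channels, had 23.9 and 27.9 normalized counts in control cells, 124 and 79.0 under shControl, 192 and 258 under shMETTL3, and 146 and 138 under shMETTL14. It rose in senescence (1.96 ± 0.26, adjusted p = 1.05e-06) and again with shMETTL3 (1.15 ± 0.20, adjusted p = 7.93e-05). With shMETTL14 it did not pass (0.49 ± 0.20, adjusted p = 0.0911). FGF13, the other tested gene of this list, is named after its values were seen. It was not called in senescence (adjusted p = 0.761) or against shControl with shMETTL3 (0.0914) or shMETTL14 (0.119). Against control cells it was higher with shMETTL3 (1.80, adjusted p = 0.0178) and shMETTL14 (1.74, adjusted p = 0.0237).

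The co-receptors and heparan sulfate proteoglycans hold FGF ligands at the cell surface. Of 13 genes 8 were tested, and 5 fell and none rose in senescence, with a median log2 fold change of -0.70 beside -0.03 for all rows, of which 13.3% fell and 13.3% rose. GPC6, a glypican, fell from 2039 and 2151 normalized counts in control cells to 397 and 574 under shControl (-2.11 ± 0.16, adjusted p = 5.17e-11). SDC3, a syndecan, fell by 0.96 on the log2 scale (adjusted p = 0.000141), and HSPG2, which encodes the basement membrane proteoglycan perlecan, fell by 0.73 (adjusted p = 0.000567). SDC4 and GPC1 were the other genes that fell, by 0.71 and 0.69, the latter a call lost without the first shControl library (adjusted p = 0.101). With shMETTL3, GPC6 and SDC2 rose and HSPG2 and SDC3 fell, beside 12.2% of all rows higher and 11.2% lower. With shMETTL14, SDC4, GPC1 and GPC6 rose and none fell, beside 9.15% higher and 12% lower. Without the first shControl library GPC6 was not called with either knockdown (0.072 and 0.111), and without the second SDC2 was not called with shMETTL3 (0.196). Without TMM factors SDC3 was not called with shMETTL3 (log2 fold change -0.27, adjusted p = 0.384). HSPG2 fell with shMETTL3 from 269 and 289 to 111 and 81.6 normalized counts (-1.54 ± 0.18, adjusted p = 3.28e-07), and SDC4 rose with shMETTL14 from 137 and 140 to 414 and 340.1 (1.44 ± 0.15, adjusted p = 8.2e-08).

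Of 10 carriers and extracellular modulators 5 were tested. FLRT2, an FGFR1-binding membrane protein, rose with shMETTL14 (0.44 ± 0.14, adjusted p = 0.0267), a call lost with DESeq2 (0.128), without the count filter (0.0544) and without any single library of these groups (0.0858 to 0.172). The other called genes of this list had mean counts under 50 and are named after their values were seen. FLRT3, a relative of FLRT2, had 7 and 7 counts in control cells, 70 and 83 under shControl, 30 and 31 under shMETTL3 and 69 and 55 under shMETTL14. SULF1, which trims heparan sulfate, had 62 and 50 counts in control cells and 4 to 20 in the senescent libraries. ANOS1, an extracellular modulator of FGFR1, had 0 counts in both control libraries, 21 and 16 under shControl, 18 and 35 under shMETTL3 and 6 and 8 under shMETTL14. In senescence FLRT3 and ANOS1 rose and SULF1 fell, beside 26.6% of all rows called. With shMETTL3, FLRT3 fell, beside 23.4% of all rows called. With shMETTL14, where 21.2% of all rows were called, FLRT2 rose and ANOS1 and SULF1 fell, the last 2 at an adjusted p of 0.0361 and 0.0472 on few counts and not with DESeq2.

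Of 19 genes of receptor signal transduction 18 were tested, and most did not pass in senescence, with 3 higher, 2 lower and a median log2 fold change of -0.06, beside 26.6% of all rows called. SHC1, an adaptor, rose from 291 and 288 normalized counts to 591 and 499 (0.91 ± 0.16, adjusted p = 7.77e-05). GAB1, a docking protein, fell by 0.95 (adjusted p = 0.000807) and NRAS fell by 0.93 on the log2 scale (adjusted p = 0.00183). HRAS had 344 and 336 normalized counts in control cells and 604 and 587 under shControl (0.81 ± 0.14, adjusted p = 6.56e-05), and reads of the ER:RAS transgene cannot be told apart from those of the gene. HRAS fell to 400.1 and 331 with shMETTL3 (-0.70 ± 0.14, adjusted p = 0.000535), a call lost without TMM factors (-0.094, adjusted p = 0.69), as was that in senescence (adjusted p = 0.137), and stood at 758 and 641 with shMETTL14 (0.23 ± 0.14, adjusted p = 0.242), and its part in the results on the FGF genes was not tested. With shMETTL3, 4 were higher and 7 lower, beside 12.2% and 11.2% of all rows, among them NRAS higher (1.03 ± 0.22, adjusted p = 0.000938), GAB1 higher (0.89 ± 0.21, adjusted p = 0.00249) and SHC1 lower (-0.83 ± 0.16, adjusted p = 0.000379). With shMETTL14, 1 was higher and 2 lower, beside 21.2% of all rows called: MAP2K1, the kinase above ERK, rose (0.83 ± 0.16, adjusted p = 0.00028), and PLCG1 and SHC1 fell, by 0.75 (adjusted p = 0.00588) and 0.54 (adjusted p = 0.0163). SHC1 with shMETTL14 was not called with DESeq2 (0.0587), without the first shControl library (0.214) or without the second shMETTL14 library (0.0834), and PLCG1 was not called without the second shControl library (0.151) or the first shMETTL14 library (0.0645). In senescence GAB1 was not called without the first shControl library (0.0664), NRAS without the second (0.0581), and MAP2K1 without the second control (0.119) or first shControl library (0.0701). With shMETTL3, GAB1 was not called without the first shControl (0.105) or second shMETTL3 library (0.0945). The counts of this list turned with the scaling: without TMM factors they were 0 higher and 10 lower in senescence, 10 higher and 0 lower with shMETTL3, and 7 higher and 0 lower with shMETTL14.

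Of 11 feedback and target genes 10 were tested, and 6 rose and none fell in senescence, with a median log2 fold change of 0.82 beside -0.03 for all rows, of which 13.3% rose. DUSP6, a phosphatase that switches off ERK, rose from 48.7 and 49.6 normalized counts in control cells to 492 and 484 under shControl (3.31 ± 0.16, adjusted p = 3.99e-15). SPRY2, a Sprouty inhibitor of receptor signaling, rose from 32.8 and 29.6 to 193 and 177 (2.56 ± 0.21, adjusted p = 3.31e-10), and SPRY4 rose by 1.69 ± 0.16 on the log2 scale (adjusted p = 3.71e-09). SPRED1, SPRED2 and ETV5 were the other genes that rose, and without TMM factors 4 genes rose. The call of SPRED2 was lost without TMM factors (0.944), without either control library (0.0729 and 0.0671) and without the first shControl library (0.292). With shMETTL3, ETV1, SPRED2 and SPRY4 rose and DUSP6 fell, and with shMETTL14, SPRY2, SPRED2 and SPRY4 rose and DUSP6, ETV1 and SPRED1 fell, although DESeq2 called none of the 3 rises with shMETTL14. Of all rows 12.2% rose and 11.2% fell with shMETTL3, and 9.15% rose and 12% fell with shMETTL14. Each of these 3 rises was also lost without single libraries (SPRY2 0.0774 to 0.25, SPRY4 0.117 to 0.286, SPRED2 0.0603 to 0.392), as was the rise of SPRED2 with shMETTL3 without the second shControl library (0.0552). The fall of SPRED1 with shMETTL14 was lost without TMM factors (0.152), without the first shControl library (0.0947) and without the first shMETTL14 library (0.0618), and that of ETV1 without the first shMETTL14 library (0.0755). DUSP6 fell with both, to 339 and 302 normalized counts with shMETTL3 (-0.61 ± 0.13, adjusted p = 0.00108) and to 177 and 193 under shMETTL14 (-1.40 ± 0.14, adjusted p = 2.15e-08), the former a call lost without TMM factors. SPRY4 rose with both (0.65 ± 0.14, adjusted p = 0.00115, and 0.42 ± 0.14, adjusted p = 0.0332). ETV1, an ETS factor, rose with shMETTL3 (1.14 ± 0.19, adjusted p = 7.01e-05) and fell with shMETTL14 (-1.003 ± 0.23, adjusted p = 0.00241).

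**Figure D5:**
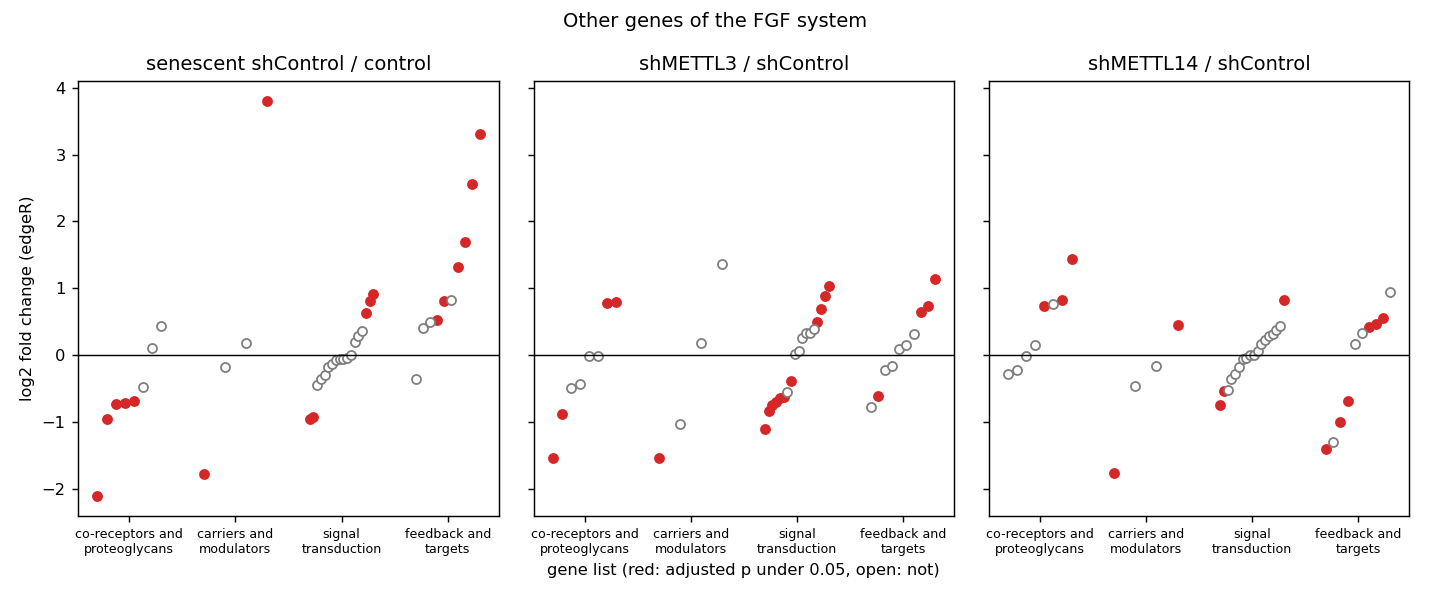
Log2 fold changes (vertical axis, edgeR) of the tested genes in 4 lists of the FGF system in senescence and with each knockdown, red where the adjusted p was under 0.05, without ANOS1, which had 0 counts in control cells. In senescence the 6 called feedback genes all lie above 0 and the 5 called co-receptor and proteoglycan genes all lie below 0.

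The rows whose pattern was most like that of FGF2 were found by Pearson's correlation of log2 CPM values over the 8 libraries, among 6297 rows with a mean of at least 50 counts. They were ATP13A3 (r = 0.980), HSP90AB1 (0.979), OSMR (0.978), ANPEP (0.978) and CXCL5 (0.977), and NUDT6 stood at place 10 of this order (0.972). In all, 21 rows had r of at least 0.95. The 8 points are 4 groups of 2 libraries and share the same scaling, so these values describe a likeness and were not tested. ATP13A3, ANPEP and CXCL5 are, like FGF2, on the study's own list drawn from these libraries, so their likeness is not independent evidence. HSP90AB1 changed less, by 0.71 on the log2 scale in senescence. ANPEP, an aminopeptidase gene, had lower counts than FGF2 but changed by similar amounts. Its log2 fold changes were 2.93 in senescence, -2.06 with shMETTL3 and -1.82 with shMETTL14. It had 64.6 and 68.8 normalized counts in control cells, 521 and 500 under shControl, 133 and 111 under shMETTL3 and 160 and 128 under shMETTL14. CXCL5, a chemokine gene, moved more, from 5.31 and 4.35 in control cells to 2840 and 2408 under shControl, 135 and 156 under shMETTL3 and 36.98 and 96.9 under shMETTL14.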

How the data were processed

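Nascent RNA was profiled by fastGRO-seq in 8 libraries of 4 groups. The authors aligned reads to hg19 with STAR and counted them with HOMER over gene bodies, and the deposited values are raw counts per gene, with replicates kept apart. The same table gives each gene's length, an annotation in bases used here for levels per kb. Reads of the Drosophila spike-in were left aside, and a change common to all genes is therefore not measured.

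Counts of all 8 libraries were fitted together in edgeR 4.0.16 (R 4.3.3) with TMM factors, rows kept by filterByExpr at a minimum count of 10, a coefficient per group, and Benjamini-Hochberg adjustment over 12844 rows at 0.05. The scripts were tested on simulated data. The study's own tool, DESeq2 (1.42.0), was an alternative, beside library size alone, upper quartile factors, no filter, only the groups compared, a replicate block, no ribosomal RNA rows, and each library left out in turn. The numbers of replicates do not pair the libraries. Plots used matplotlib 3.10.9.

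The 10 genes and the gene lists were chosen with earlier results of these data known. Named beside them are METTL3, METTL14, HRAS, rows overlapping a member or next to FGF2 and NUDT6, the 5 rows most like FGF2, and per list and comparison at most 3 called genes of largest change with a mean of at least 50 counts. Promoter letters come from GRCh37 at the table's own gene starts. Protein sequences were not analysed here. One blood marker, and the sum over its list, is not reported here.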

Additional observations from a re-analysis of the deposited data

Results flagged for a closer look

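The effects of the knockdowns were set against each other by a direct comparison of senescent shMETTL14 with senescent shMETTL3 libraries (edgeR, 2 libraries per group). In it 23 of the 40 genes named by the rule given in the methods differed at an adjusted p under 0.05, beside 35.2% of all tested rows. Part of that rule picks genes called with a knockdown, so nothing is read from this count against that share. FLRT3 (1.07, adjusted p = 0.00208), ANOS1 (-1.84, adjusted p = 0.00557) and SULF2 (-1.51, adjusted p = 0.0252), which were named after their values were seen, differed as well. Among the FGF genes, FGF1 was lower with shMETTL14 (log2 difference -1.182, adjusted p = 0.00347) and FGFRL1 was higher (1.389, adjusted p = 0.00717). The targets themselves differed, with METTL3 higher (1.929) and METTL14 lower (-1.412) with shMETTL14. Next to the FGF ligands, FAM227B (-0.5409) and SPATA5 (-0.5621) were lower with shMETTL14, and so was FGF14 (-0.6667). The reads of FGF7 lie within FAM227B and make up part of its count. Each of these 3 calls was lost without single libraries: FAM227B without the second shMETTL3 (0.195) or second shMETTL14 library (0.0863), SPATA5 without the second shMETTL3 (0.0638) or first shMETTL14 library (0.0668), and FGF14 without the second shMETTL3 (0.11) or second shMETTL14 library (0.0511).

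Among the co-receptors, SDC4 (1.88), HSPG2 (1.692), SDC3 (0.8671) and GPC1 (0.84) were higher with shMETTL14 and SDC2 (-1.02) was lower, the call of SDC3 being lost without the first shMETTL14 library (0.0568). Of the signal transducers, HRAS (0.9368) and MAP2K1 (0.7613) were higher, and GAB1 (-1.415), PLCG1 (-1.086) and NRAS (-0.9631) were lower. Other called genes of that list, named after their values were seen, were MAP2K2 (1.17), MAPK3 (1.07), GRB2 (0.71) and CBL (0.46), which were higher, and SOS2 (-0.76) and BRAF (-0.49), which were lower. Of the feedback genes, SPRY2 (0.7048) was higher, and ETV1 (-2.141), DUSP6 (-0.7925) and SPRED1 (-0.4599) were lower. SPRY2 lost its call with library size alone (0.0652) and without the first shMETTL14 library (0.0547). SPRED1 lost its call with DESeq2 (0.0901), upper quartile factors (0.0583) and only the groups compared (0.111), without the first shMETTL14 library (0.22), and without the second shMETTL3 library, where the log2 difference was -0.075 (0.777). OSMR (-0.3811) and CXCL5 (-1.131), which resembled FGF2 over the libraries, were lower with shMETTL14, and OSMR lost its call with only the groups compared (0.102), without the first shMETTL3 library (0.0546) and without either shMETTL14 library (0.0905 and 0.0652). Over all rows 35.2% differed in this comparison, so a difference at 1 of these genes is common among all genes. With 2 libraries per group, no test for a single library far from its group was made, and the shMETTL3 libraries differed most from each other.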

How the results depend on the processing

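The calls of FGF2 and NUDT6 in senescence and with either knockdown against shControl were kept under all 11 alternatives, as were those of FGF7 in senescence and with shMETTL14, of FGF5 and FGFRL1 with shMETTL3 and of FGFR1 in senescence. Over the log2 fold changes of the 7 tested FGF genes, 415 alternative values had the same direction and call, 30 lost the call, 7 gained it and 10 changed sign. Calls of FGF genes between the knockdowns numbered 2, and 4 with library size alone, 3 without the count filter, where FGF18 was added, and 0 to 3 with single libraries left out, and calls of shMETTL3 against control numbered 5, and 3 to 5 with single libraries left out. Signs were followed for the FGF genes in all 6 comparisons, for METTL3, METTL14 and SPATA5 in senescence and with each knockdown, and for other named genes only where they were called. Among these, with library size alone signs changed for FGF5 with shMETTL14 against control (-0.017), FGFR1 with shMETTL3 (0.29) and shMETTL14 (0.32), FGFRL1 with shMETTL14 (0.023), METTL3 in senescence (-0.46) and with shMETTL14 (0.25), SPATA5 in senescence (-0.31) and with shMETTL14 (0.26), DUSP6 with shMETTL3 (0.0041) and HSP90AB1 with shMETTL3 (0.23). With upper quartile factors they changed for FGFR1 with shMETTL14 (9.3e-05) and METTL3 in senescence (-0.013). This scaling by library size moved the median of all rows by the shifts given above, and the cause was not tested further. With single libraries left out, the ranges among these values crossed 0 for FGF1 in senescence (-0.76 to 0.027), FGF5 (-0.24 to 0.050) and NUDT6 (-0.42 to 0.25) between the knockdowns, FGFR1 with shMETTL14 (-0.12 to 0.076) and METTL3 in senescence (-0.40 to 0.40) and with shMETTL14 (-0.47 to 0.34), none of them called.

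With a replicate block, the FGF genes called numbered 5, 5, 4, 2, 5 and 4 in the 6 comparisons, the same as without it, and the numbers do not pair the libraries. Over all rows DESeq2 called 2139 in senescence where edgeR called 3413, 1698 against 3007 with shMETTL3, 1519 against 2720 with shMETTL14 and 2919 against 4517 between the knockdowns. Library size alone gave 5759 in senescence and 5638 with shMETTL3. The main fit pools the spread over all 4 groups, although the shMETTL3 libraries differed most from each other. With only the groups compared, 4487 rows were called in senescence, 2365 with shMETTL3, 3466 with shMETTL14 and 3600 between the knockdowns. Depth limits FGF10, FGF18 and FGFR2, which had at most 6 counts in any library, and FGF1 and FGFRL1, with 9 to 67 counts.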
